A study of Mus musculus with 8 samples.

Results

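The genes described here are 10 components of the bone morphogenetic protein (BMP) and transforming growth factor beta (TGF-beta) pathways, chosen by name. They are the ligand genes Bmp4, Bmp7 and Tgfb2, the receptor genes Bmpr1a, Bmpr1b, Bmpr2, Tgfbr1 and Tgfbr2, and the inhibitory Smad genes Smad6 and Smad7. All 10 were found among the 15538 genes measured. Bulk RNA-seq of polyadenylated RNA was run on primary neurospheres, floating clusters of neural stem cells, from embryonic mouse brain. There were 4 wild-type libraries (WT, Phf23+/+) and 4 labelled Phf23-/-, with no treatment named. The comparison bears on how cells without Phf23, a PHD-finger protein gene, differentiate, and differentiation itself was not assayed here. Embryonic age, strain, the kind of Phf23 allele and whether replicates were separate cultures or animals are not stated in the labels. The p-values therefore cover the spread among these libraries alone, which may be technical.

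BMP and TGF-beta ligands are secreted dimers. A ligand brings together type II receptor kinases (Bmpr2 for BMPs, Tgfbr2 for TGF-betas) and type I receptor kinases (Bmpr1a and Bmpr1b, or Tgfbr1). The type I receptor then phosphorylates Smad1, Smad5 and Smad9 in the BMP branch or Smad2 and Smad3 in the TGF-beta branch, and these enter the nucleus with Smad4. Smad6 and Smad7 block the cascade and are themselves induced by it. In neural stem cells BMP signalling is known for inducing Id genes and for favouring astrocyte over neuronal and oligodendrocyte fates.

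Each library held 15647304 to 19462516 reads, and values are normalised reads, which are gene reads over 1 size factor per library. Phf23 itself averaged 1481 ± 108 normalised reads in the libraries labelled Phf23-/- and 798 ± 85.4 in wild type (SD, n = 4 each, limma-trend FDR = 0.000581). The targeted gene went against the label, so libraries are named below by their labels and every direction is between libraries as labelled. Reads summed over a gene do not check a partial deletion. Values also scaled with transcript length differently among libraries. Log2 values, each gene centred on its mean over all libraries, were fitted on log2 transcript length over 13265 genes. A slope (change per doubling) of 0 is thus that of the average library. The slopes came to 0.26, 0.20, 0.079 and 0.062 in wild type 1 to 4 and -0.24, -0.31, -0.093 and 0.040 in Phf23-/- 1 to 4. Relative to that average, longer transcripts had lower values in Phf23-/- 1 to 3, while Phf23-/- 4 lay beside wild type 3 and 4. Bmpr2 has a transcript of 12899 nt, longer than 99.1% of genes, and the other 4 receptor genes and Tgfb2 lie between the percentiles 79.0 and 94.4.

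Per length, Bmp7 had the highest mean level of the 10 genes. In wild type it stood at 730.1 ± 46.8 normalised reads per kb of annotated exon (SD, n = 4), and over all libraries it lay above 93.1% of genes. Bmpr1a followed, with wild-type libraries at 488 to 683 per kb, which overlapped the lowest Bmp7 library (673). Bmpr2 (201 ± 41.1), Tgfb2 (194 ± 14.2) and Tgfbr1 (180.0 ± 12.1) overlapped one another. Bmpr1b (50.1 ± 5.65) and Tgfbr2 (44.7 ± 3.61) formed a lower overlapping pair. Smad7 stood at 8.34 ± 4.08, and Smad6 (0.477 ± 0.204) and Bmp4 (0.375 ± 0.751) rested on few reads. The order of the wild-type means was the same per kb of the longest transcript. In Phf23-/-, Tgfb2 (213 ± 6.89) stood above Bmpr2 (138 ± 11.5) and the order was otherwise the same.

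**Figure D1:**
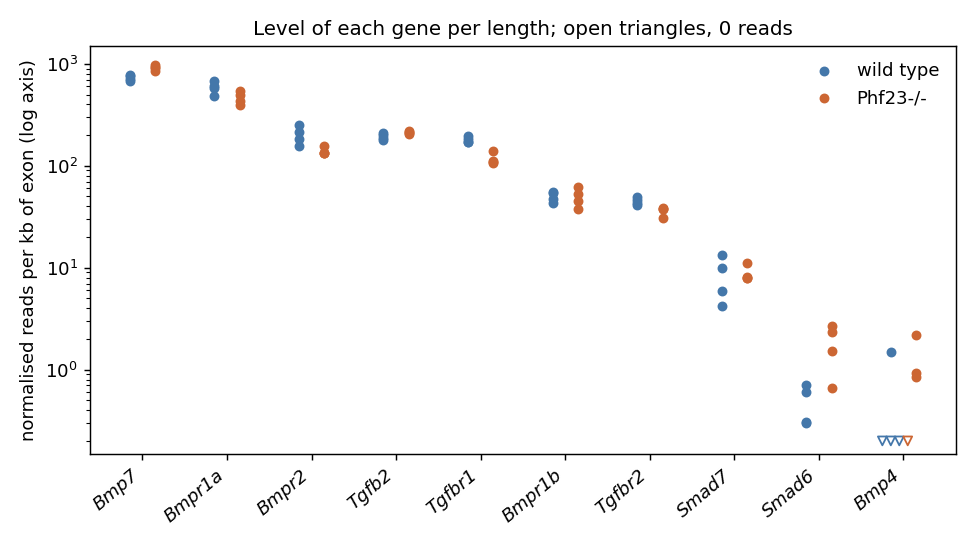
Normalised reads per kb of annotated exon (log axis) of the 10 genes, 1 point per library, in the order of the wild-type mean. Bmp7 and Bmpr1a stood highest, and Bmp4 had 0 reads in 4 of 8 libraries.

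Of the 10 genes, Bmp7 rose and Bmpr2 and Tgfbr1 fell in the libraries labelled Phf23-/-, at a false discovery rate (FDR) under 0.05 by limma-trend over all genes. That is 3 of 10, beside 29.6% of all genes called. The genotypes did not overlap for 4 of 10 (these 3 and Tgfbr2), beside 27.7% of all genes, so both shares are near the background. The median log2 fold change was 0.052 over the 10 genes and 0.00055 over all genes. Other fits called 5 of the 8 tested with DESeq2 (37.2% of all genes) and 5 of 10 with scaling by library size (29.5%). They called 3 with a trend on transcript length and GC content removed per library (18.2%), 0 with the length slope as a covariate (1.09%) and 1 in wild type 3 and 4 against Phf23-/- 3 and 4 (9.15%). In bulk samples, fewer cells of a type and less RNA per cell cannot be told apart.

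**Figure D2:**
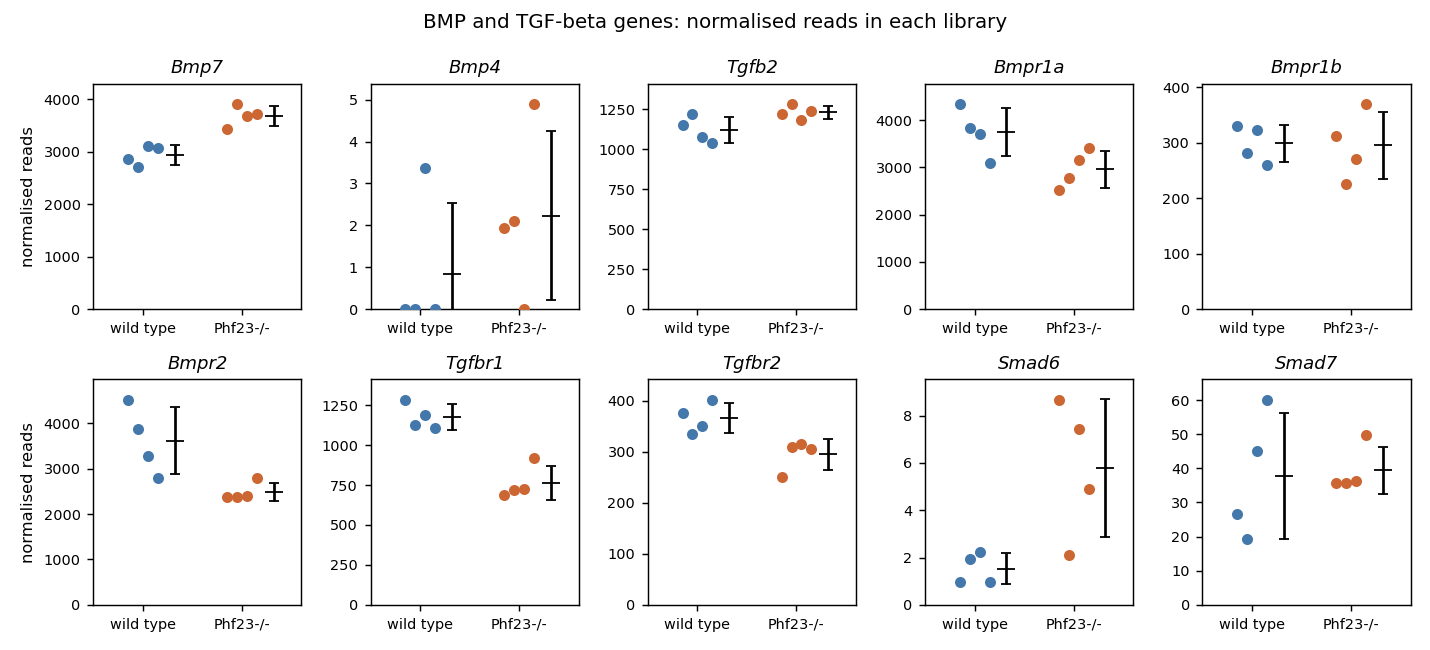
Normalised reads of the 10 genes in each library (points), with the mean and SD of 4 libraries; each vertical axis starts at 0. Bmp7 was higher in all 4 libraries labelled Phf23-/-, while Tgfbr1, Bmpr2 and Tgfbr2 were lower in all 4.

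Bmp7 encodes a BMP ligand (ENSMUSG00000008999, chromosome 2, 172868012 to 172940321, minus strand, mm10). The Bmp7 values were 2859, 2703, 3103 and 3071 normalised reads in wild-type libraries 1 to 4 and 3443, 3909.8, 3684 and 3717 in Phf23-/- 1 to 4. Every library labelled Phf23-/- lay above every wild-type one. Means were 2934 ± 188 and 3689 ± 191 (SD, n = 4 each), or 1.26-fold (log2 0.33 ± 0.0911 SE, 95% interval 0.13 to 0.53, limma-trend FDR = 0.0191). The call held with the length and GC trend subtracted (log2 0.26, FDR = 0.0201). It ended with the length slope as a covariate (FDR = 0.443), in wild type 3 and 4 against Phf23-/- 3 and 4 (FDR = 0.106), without wild type 1 (FDR = 0.0567) and without wild type 2 (FDR = 0.0727), at log2 values of 0.26, 0.26, 0.32 and 0.29.

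Tgfb2, a TGF-beta ligand gene (ENSMUSG00000039239, chromosome 1, 186622792 to 186705989, minus strand), did not pass the test. Normalised reads of Tgfb2 were 1149, 1224, 1076 and 1038 for wild type 1 to 4 and 1222, 1283, 1186 and 1237 for Phf23-/- 1 to 4, so the genotypes overlapped. On the log2 scale the difference was 0.14 ± 0.0939 (limma-trend FDR = 0.289, 95% interval -0.066 to 0.34), and with the length and GC trend subtracted it was called higher (log2 0.38, FDR = 0.00708).

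Bmp4, a ligand gene of the dorsal midline of the embryonic brain (ENSMUSG00000021835, chromosome 14, 46383520 to 46390669, minus strand), was close to undetected. It had 3 wild-type reads, all in library 3, and 9 from the libraries labelled Phf23-/-. A difference was not detectable at this depth (limma-trend FDR = 0.389).

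Tgfbr1, the type I TGF-beta receptor gene (ENSMUSG00000007613, chromosome 4, 47353222 to 47414931, plus strand), had the largest log2 change of the 5 receptor genes. In wild type 1 to 4, Tgfbr1 had 1283, 1127, 1188 and 1106 normalised reads, and in Phf23-/- 1 to 4 690.2, 718, 722 and 919.7. All wild-type libraries were above all those labelled Phf23-/-, of which library 4 came closest. Means were 1176 ± 79.2 and 763 ± 106, or 1.54-fold lower (log2 -0.63 ± 0.113, 95% interval -0.88 to -0.39, limma-trend FDR = 0.00477). The call held without each library in turn, with the length and GC trend subtracted (log2 -0.27, FDR = 0.0368) and in wild type 3 and 4 against Phf23-/- 3 and 4 (log2 -0.49, FDR = 0.00136). It ended with the length slope as a covariate (log2 -0.36, FDR = 0.305).

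Bmpr2, the type II BMP receptor gene (ENSMUSG00000067336, chromosome 1, 59763400 to 59879014, plus strand), also fell. The Bmpr2 values were 4517, 3866, 3289.7 and 2803 normalised reads in wild-type libraries 1 to 4 and 2378, 2378, 2392 and 2795 in Phf23-/- 1 to 4. Wild type varied widely and fell in the order of its length slopes (0.26, 0.20, 0.079 and 0.062). Phf23-/- 1 to 3 were nearly equal, at slopes of -0.24, -0.31 and -0.093. Phf23-/- 4 (slope 0.040) was close to wild type 4 and below wild type 3. Means were 3619 ± 739.7 and 2486 ± 206, or 1.46-fold lower (log2 -0.52 ± 0.136, 95% interval -0.82 to -0.23, limma-trend FDR = 0.0156). The sign turned without a call with the length and GC trend subtracted (log2 0.075, FDR = 0.490). The call also ended with the length slope as a covariate (log2 -0.14, FDR = 0.821), in wild type 3 and 4 against Phf23-/- 3 and 4 (log2 -0.23, FDR = 0.171), without wild type 2 (log2 -0.48, FDR = 0.0549) and without Phf23-/- 1 (log2 -0.50, FDR = 0.0542).

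Bmpr1a, a type I BMP receptor gene (ENSMUSG00000021796, chromosome 14, 34410734 to 34503341, minus strand), missed the threshold. Normalised reads of Bmpr1a were 4339, 3830.2, 3711 and 3102 for wild type 1 to 4 and 2520.3, 2766, 3149 and 3411 for Phf23-/- 1 to 4. Phf23-/- 3 and 4 lay above wild type 4, so the genotypes overlapped. On the log2 scale the difference was -0.34 ± 0.125 (limma-trend FDR = 0.0583, 95% interval -0.61 to -0.067), and with the length and GC trend subtracted it was 0.036 (FDR = 0.752). It was called without wild type 4 (log2 -0.43, FDR = 0.0247) and without Phf23-/- 4 (log2 -0.41, FDR = 0.0188).

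Bmpr1b, the other type I BMP receptor gene (ENSMUSG00000052430, chromosome 3, 141837136 to 142169425, minus strand), showed no detected change. In wild type 1 to 4, Bmpr1b had 331, 282, 323 and 259.7 normalised reads, and in Phf23-/- 1 to 4 313, 226, 272 and 369.8, with the highest and the lowest library both labelled Phf23-/-. On the log2 scale the difference was -0.034 ± 0.156 (limma-trend FDR = 0.893, 95% interval -0.37 to 0.30).

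Tgfbr2, the type II TGF-beta receptor gene (ENSMUSG00000032440, chromosome 9, 116084293 to 116175360, minus strand), did not overlap between genotypes but missed the threshold. The Tgfbr2 values were 376, 335, 349.9 and 402 normalised reads in wild-type libraries 1 to 4 and 250.3, 309.6, 316 and 305 in Phf23-/- 1 to 4. On the log2 scale the difference was -0.31 ± 0.121 (limma-trend FDR = 0.0699, 95% interval -0.57 to -0.048), and with the length and GC trend subtracted it was 0.11 (FDR = 0.567).

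**Figure D3:**
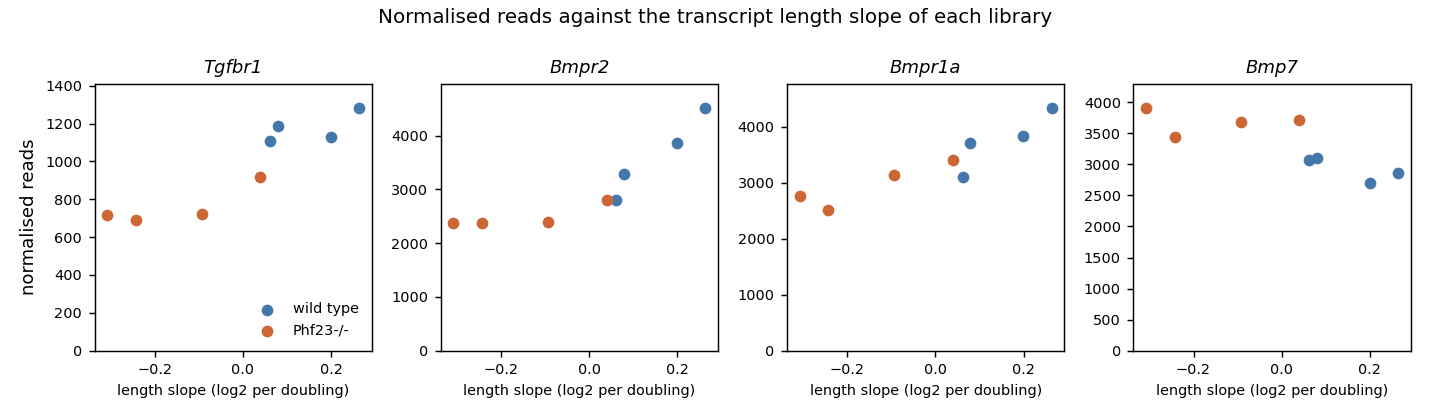
Normalised reads of 4 genes (vertical axis, from 0) against the transcript length slope of each library (horizontal axis, log2 units per doubling of length), 1 point per library. In Phf23-/- 4 (slope 0.040), wild type 4 (0.062) and wild type 3 (0.079), Bmpr2 stood at 2795, 2803 and 3289.7, and Tgfbr1 at 919.7, 1106 and 1188.

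**Figure D4:**
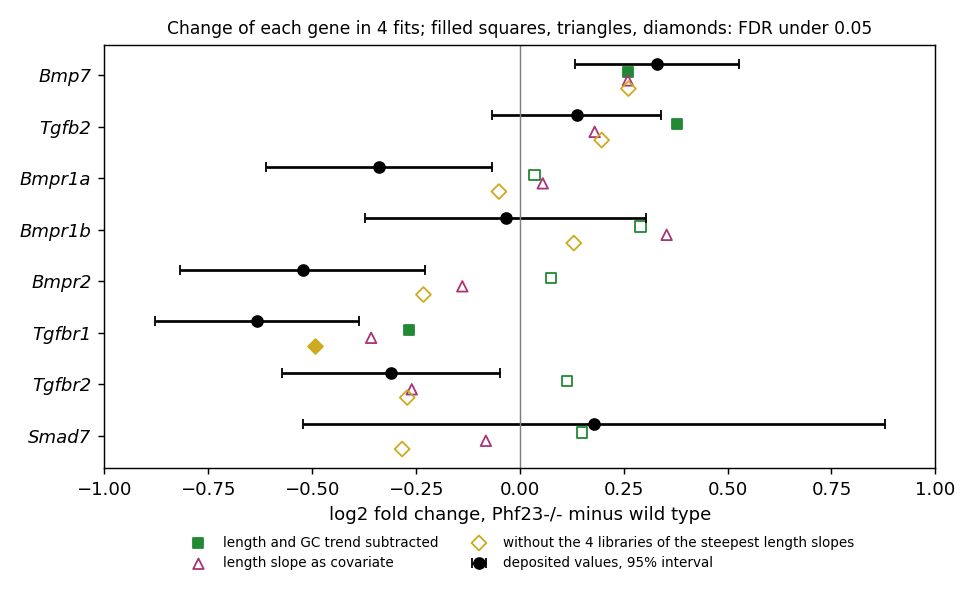
Log2 fold change of 8 genes with 95% intervals for the deposited values, beside the estimates of 3 fits that treat transcript length differently; filled markers had an FDR under 0.05. Bmp7 lay between 0.26 and 0.33 and Tgfbr1 below 0 in all 4 fits, whereas Bmpr2 ran from -0.52 to 0.075.

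RefSeq sequences at the start sites of Tgfbr1 and Bmpr2, the receptor genes that fell, and of Smad6, which the pathway induces, are shown for the Smad-binding letters they hold. The RefSeq promoter table (build GRCm38.p6) matched 8 of the 10 genes. Each sequence runs from 250 bases before the start site to 20 bases from it, 5′ to 3′ on the gene's strand. Capitals mark matches, on either strand, to GTCTAGAC (a palindromic Smad-binding element), GGCGCC (a GC-rich element of BMP-branch Smads), GGGCGG (a GC box) and CCAAT, and none of the matches shown overlap. Of 32851 promoters in the same window, 0.183% held GTCTAGAC, 10.4% GGCGCC, 34.1% GGGCGG and 35.4% CCAAT.
Tgfbr1 (chr4:47352972-47353241, plus strand): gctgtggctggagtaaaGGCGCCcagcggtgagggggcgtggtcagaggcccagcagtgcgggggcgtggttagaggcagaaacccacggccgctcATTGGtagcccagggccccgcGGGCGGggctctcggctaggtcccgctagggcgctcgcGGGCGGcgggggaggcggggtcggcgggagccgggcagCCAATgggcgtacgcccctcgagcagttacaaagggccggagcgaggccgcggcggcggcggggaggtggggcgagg
Bmpr2 (chr1:59764029-59764298, plus strand): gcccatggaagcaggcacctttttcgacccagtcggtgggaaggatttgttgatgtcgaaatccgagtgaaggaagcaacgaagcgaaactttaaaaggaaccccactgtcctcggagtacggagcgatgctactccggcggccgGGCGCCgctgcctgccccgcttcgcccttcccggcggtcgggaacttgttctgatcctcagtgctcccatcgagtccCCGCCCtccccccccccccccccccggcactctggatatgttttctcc
Smad6 (chr9:64022040-64022309, minus strand): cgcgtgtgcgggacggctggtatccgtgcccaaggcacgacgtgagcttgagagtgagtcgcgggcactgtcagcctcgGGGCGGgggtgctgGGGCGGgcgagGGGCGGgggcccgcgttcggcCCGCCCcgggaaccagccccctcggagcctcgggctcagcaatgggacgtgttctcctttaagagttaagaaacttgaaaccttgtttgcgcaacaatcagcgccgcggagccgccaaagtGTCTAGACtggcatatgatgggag

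Both receptor windows held 1 GGCGCC, with 1 GC box in that of Bmpr2 and 2 GC boxes and 2 CCAAT matches in that of Tgfbr1. The window of Bmpr1a, which was not called, likewise held 1 GGCGCC, 4 GC boxes and 1 CCAAT. The other RefSeq start of Tgfbr1, 32994 bases from the one shown, had 0 matches. The Smad6 window held GTCTAGAC across the start site, from position -4 to 4, and 4 GC boxes. The RefSeq start shown for Bmpr2 lies 879 bases from the gene start in GENCODE. A match describes letters, and binding was not measured here.

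Smad6, an inhibitory Smad gene of the BMP branch (ENSMUSG00000036867, chromosome 9, 63953076 to 64022059, minus strand), rested on 6 wild-type reads and 24 from the libraries labelled Phf23-/-. Normalised reads of Smad6 were 0.981, 1.92, 2.25 and 0.969 for wild type 1 to 4 and 8.66, 2.11, 7.44 and 4.89 for Phf23-/- 1 to 4, of which library 2 lay within the wild-type range. On the log2 scale the difference was 1.33 ± 0.518 (95% interval 0.21 to 2.46) and missed the threshold (limma-trend FDR = 0.0687), and it was called without Phf23-/- 2 (log2 1.67, FDR = 0.0414).

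Smad7, which inhibits both branches (ENSMUSG00000025880, chromosome 18, 75367529 to 75395935, plus strand), showed no detected change. Wild-type libraries 1 to 4 had 26.5, 19.2, 45.0 and 60.1 normalised reads, a range that held all the Phf23-/- values of 35.6, 35.8, 36.3 and 49.9. On the log2 scale the difference was 0.18 ± 0.323 (limma-trend FDR = 0.712, 95% interval -0.52 to 0.88).

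Ligand, receptor and inhibitory Smad genes were compared in pairs within each library by the difference of their log2 values, for 4 pairs. Of these, Tgfbr1 and Tgfbr2 encode receptors of different types (I and II), which act together and are not alternatives. Tgfbr1 exceeded Tgfbr2 by 1.68 ± 0.151 in wild type and 1.36 ± 0.195 in Phf23-/- (SD, n = 4 each, two-sided exact permutation p = 0.0857, adjusted over the pairs 0.190). Bmpr1a exceeded Bmpr1b by 3.64 ± 0.112 and 3.34 ± 0.281 (exact permutation p = 0.143, adjusted 0.190). Smad6 less Smad7 was -3.84 ± 0.885 and -2.69 ± 0.782 (exact permutation p = 0.143, adjusted 0.190), and Bmp4 less Bmp7 was -10.98 ± 1.01 and -10.41 ± 1.06 (exact permutation p = 0.457, adjusted 0.457). The smallest p that 4 against 4 libraries allow is 0.0286 before adjustment. Adjusted over the 4 pairs, a lone pair at that p could not have passed, and none of these differences did.

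The genes most like 4 of the members were found by Pearson's r of log2 values over the 8 libraries, among 11168 other protein-coding genes. They were Epc2 and Fndc3b (r = 0.992 and 0.990) for Tgfbr1 and Uba6 and Zfr (r = 0.997 and 0.995) for Bmpr2. For Bmp7 they were Tmem129 and Cdip1 (r = 0.985 and 0.976), and for Bmpr1a Cd109 and Pigb (r = 0.993 and 0.992). Such likeness was common: 1142 genes had an r over 0.9 with Tgfbr1, 1122 with Bmpr2, 1027 with Bmpr1a and 313 with Bmp7. The points share genotype and length slope.

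The rest of the pathway was read from 7 lists of 109 genes, 87 of them measured. In the libraries labelled Phf23-/-, 13 were called higher and 17 lower, or 34.5% beside 29.6% of all genes. The counts of each list below stand beside 14.8% of all genes called higher and 14.8% lower. With the length slope as a covariate the lists held 1 call among signal-carrying Smads (Smad3), 1 among TGF-beta targets and 0 elsewhere, so the calls named below ended in that fit. Other ligand genes had 2 called higher and 0 lower among 9 measured (20 listed, median log2 fold change 0.33). Inha, the inhibin alpha gene, rose from 36.9 ± 14.5 to 63.4 ± 7.82 normalised reads (limma-trend FDR = 0.0307), and Gdf11 rose from 769 ± 78.6 to 972 ± 115 (FDR = 0.0495). The call of Inha held on leaving out wild type 3 and no other library, and that of Gdf11 on leaving out wild type 4 or Phf23-/- 2 (FDR up to 0.0919 and 0.146 otherwise). The Inha call also ended with the length and GC trend subtracted (log2 0.29 from 0.83, FDR = 0.448) and in wild type 3 and 4 against Phf23-/- 3 and 4 (log2 0.70, FDR = 0.119). The Gdf11 call held in these 2 fits (log2 0.36 and 0.37, FDR = 0.0126 and 0.0278) and ended with scaling by library size (log2 0.27, FDR = 0.134). Gdf15, a stress-induced ligand gene, was at 708 ± 106 and 918 ± 139 (FDR = 0.0629).

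Other receptor and co-receptor genes had 1 called higher and 2 lower among 12 measured (13 listed, median log2 fold change -0.093). Both activin type II receptor genes fell, Acvr2a from 747 ± 135 to 529 ± 90.1 (limma-trend FDR = 0.0287) and Acvr2b from 122 ± 16.9 to 76.5 ± 21.1 (FDR = 0.0294). Rgma, a BMP co-receptor gene, rose from 1784 ± 258 to 2377 ± 235 (FDR = 0.0222). Calls ended with the length and GC trend subtracted for Acvr2a (log2 -0.12 from -0.50, FDR = 0.398) and Rgma (log2 0.23 from 0.42, FDR = 0.0718). Acvr2a also lost its call without wild type 1 or 2 or Phf23-/- 1 or 3, Acvr2b without wild type 1, 2 or 3 or Phf23-/- 1 or 2, and Rgma without wild type 1 or 2 or Phf23-/- 3 (FDR up to 0.0967, 0.0774 and 0.0806). All 3 calls ended in wild type 3 and 4 against Phf23-/- 3 and 4, for Acvr2a at log2 -0.20, Acvr2b at -0.56 and Rgma at 0.30 (FDR = 0.404, 0.101 and 0.0519).

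Genes of signal-carrying Smads had 0 called higher and 2 lower among 6 measured (6 listed, median log2 fold change -0.32). Smad5 of the BMP branch fell from 4226 ± 296 to 3119 ± 312 (limma-trend FDR = 0.0105) and the shared partner Smad4 fell from 1891 ± 156 to 1473 ± 133 (FDR = 0.0209). Smad2 was at 1254 ± 73.4 and 1042 ± 111 (FDR = 0.0654). The Smad5 call ended with the length and GC trend subtracted (log2 -0.064 from -0.44, FDR = 0.525), and that of Smad4 ended without wild type 1 or 2 or Phf23-/- 1 (FDR up to 0.0716). Both calls ended in wild type 3 and 4 against Phf23-/- 3 and 4, for Smad5 at log2 -0.28 (FDR = 0.0764) and for Smad4 at -0.18, from -0.36 (FDR = 0.351). Smad3, named after its values were seen, was at 1195 ± 25.0 and 1441 ± 217 (log2 0.26, FDR = 0.101). It was called higher with the length and GC trend subtracted (log2 0.37, FDR = 0.00412), with the length slope as a covariate (log2 0.57, FDR = 0.0341) and in wild type 3 and 4 against Phf23-/- 3 and 4 (log2 0.47, FDR = 0.00136).

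Genes of extracellular antagonists and ligand activation had 2 called higher and 4 lower among 23 measured (30 listed, median log2 fold change 0.016). The BMP antagonist gene Nbl1 rose from 1042 ± 158 to 1729 ± 132 (limma-trend FDR = 0.00282). Ltbp4, a latent TGF-beta binding protein gene, fell from 1333 ± 206 to 791 ± 94.1 (FDR = 0.00405), and Twsg1, an extracellular BMP modulator gene, fell from 1660.5 ± 175 to 1108 ± 209 (FDR = 0.0106). With the length and GC trend subtracted, Ltbp4 and Twsg1 stayed called (log2 -0.81 and -0.44, from -0.75 and -0.60), and Nbl1 did not (log2 0.24 from 0.74, FDR = 0.0575). The other calls, named after their values were seen, were the protease gene Bmp1 (log2 0.42, FDR = 0.0144), the integrin gene Itgb8 (log2 -0.50, FDR = 0.0167) and the thrombospondin gene Thbs1 (log2 -1.03, FDR = 0.0131). Bmp1 and Itgb8 lost their calls without wild type 1 or 2 or Phf23-/- 1 (FDR up to 0.0547 and 0.0617), and Itgb8 also lost its call and turned sign with the length and GC trend subtracted (log2 0.018, FDR = 0.895). In the fit of wild type 3 and 4 against Phf23-/- 3 and 4, the calls of Twsg1 (log2 -0.32, FDR = 0.0537), Bmp1 (log2 0.26, FDR = 0.104) and Itgb8 (log2 -0.22, FDR = 0.208) ended.

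Genes of intracellular regulators had 1 called higher and 7 lower among 17 measured (17 listed, median log2 fold change -0.28). Skil, which encodes the Smad corepressor SnoN, fell from 690.1 ± 46.2 to 421 ± 49.2 (limma-trend FDR = 0.00282). Xiap, an adaptor of BMP receptor signalling, fell from 2265 ± 258 to 1423 ± 198 (FDR = 0.00459), and the repressor gene Zeb1 fell from 9142 ± 1127 to 6221 ± 834 (FDR = 0.00875). All 3 stayed called with the length and GC trend subtracted, at log2 -0.29, -0.21 and -0.26, from -0.72, -0.67 and -0.56. The Zeb1 call ended in wild type 3 and 4 against Phf23-/- 3 and 4 (log2 -0.28, FDR = 0.0853). With the length and GC trend subtracted the list had 3 higher and 3 lower, beside 18.2% of all genes called in that fit.

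BMP target genes had 5 called higher and 0 lower among 8 measured (11 listed, median log2 fold change 0.48), beside 14.8% of all genes called higher and 14.8% lower. In wild type 1 to 4, Id1 had 263, 227, 396 and 462 normalised reads, and in Phf23-/- 1 to 4 813, 843, 678 and 527, with no overlap (2.12-fold, log2 1.12 ± 0.218, limma-trend FDR = 0.00619). Id4 rose from 90.5 ± 6.42 to 169 ± 12.5 (FDR = 0.00249), also with no overlap. Hey1, a repressor gene that Notch also induces, rose from 866 ± 97.6 to 1151 ± 26.8 (FDR = 0.0134), a call lost without wild type 2 (FDR = 0.0524) and with the length and GC trend subtracted (log2 0.22 from 0.42, FDR = 0.0722), and also in wild type 3 and 4 against Phf23-/- 3 and 4 (log2 0.29, FDR = 0.105).

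The other 2, named after their values were seen, were Id3, at 1783 ± 374 and 2589 ± 439 (limma-trend FDR = 0.0238), and Atoh8, at 12.1 ± 8.70 and 35.3 ± 10.7 (FDR = 0.0214). Id3 lost its call without wild type 1 or 2 or Phf23-/- 1, 2 or 3, and Atoh8 without wild type 1 or 2 or Phf23-/- 2 (FDR up to 0.0817 and 0.0620). Id3 was at 0.066 with the length and GC trend subtracted (FDR = 0.655), against 0.54 before. The calls of Id3 (log2 0.16, FDR = 0.401) and Atoh8 (log2 0.75 from 1.73, FDR = 0.255) ended in wild type 3 and 4 against Phf23-/- 3 and 4. Id1 and Id4 stayed called with the length and GC trend subtracted (log2 0.63 and 1.05, FDR = 0.00759 and 0.000206) and in wild type 3 and 4 against Phf23-/- 3 and 4 (log2 0.48 and 0.88, FDR = 0.00908 and 0.00115). Neither was called with the length slope as a covariate (log2 0.32 and 0.85, FDR = 0.652 and 0.0961).

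**Figure D5:**
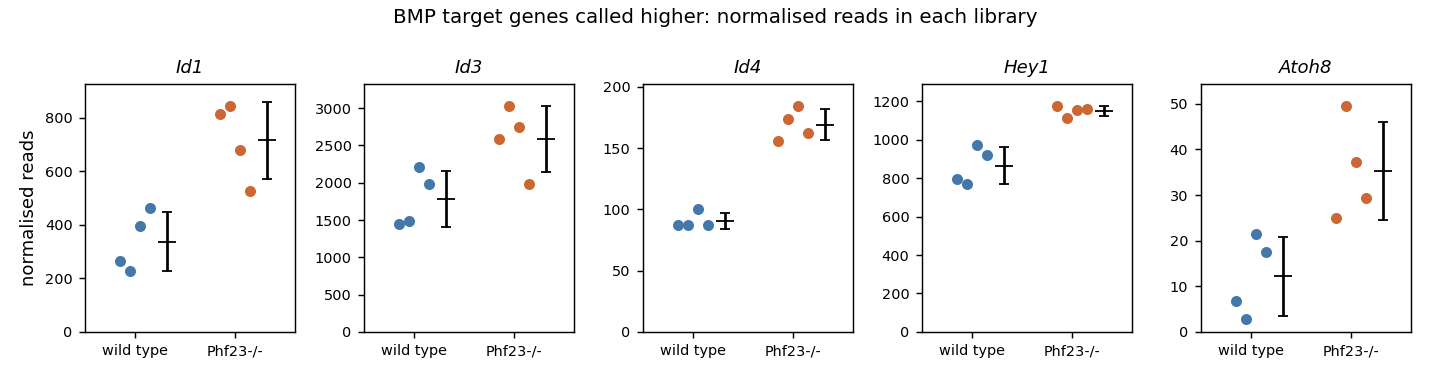
Normalised reads of the 5 BMP target genes called higher, in each library (points) with the mean and SD of 4 libraries; each vertical axis starts at 0. Genotypes did not overlap for 4 of the 8 BMP target genes measured, Id1, Id4 and Hey1 among them, beside 27.7% of all genes. The lowest Phf23-/- library of Id3 (1988) lay within its wild-type range.

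TGF-beta target genes had 2 called higher and 2 lower among 12 measured (12 listed, median log2 fold change 0.16). The AP-1 gene Junb rose from 759 ± 247 to 1458 ± 327 (limma-trend FDR = 0.0108), and the fibronectin gene Fn1 fell from 659.7 ± 81.3 to 454 ± 94.0 (FDR = 0.0199). The repressor gene Snai2 had 17 wild-type reads and 1 from the libraries labelled Phf23-/- (FDR = 0.0161), a call lost without wild type 1 (FDR = 0.0599). Cdkn2b, a cell cycle inhibitor gene named after its values were seen, rose from 408 ± 63.7 to 591 ± 133 (FDR = 0.0340). With the length and GC trend subtracted, Junb (log2 0.42 from 0.97, FDR = 0.183), Fn1 (log2 -0.18 from -0.55, FDR = 0.247) and Cdkn2b (log2 0.062 from 0.52, FDR = 0.695) were not called. Fn1 also lost its call without wild type 1 or 2 or Phf23-/- 1, and Cdkn2b without these or Phf23-/- 2 (FDR up to 0.0655 and 0.114). The calls of Snai2, Fn1 and Cdkn2b ended in wild type 3 and 4 against Phf23-/- 3 and 4 (FDR = 0.176, 0.491 and 0.789, with Fn1 at log2 -0.17 and Cdkn2b at 0.085).

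Neural stem cell and radial glia markers, 10 of 10 measured, summed to 134598 to 144788 normalised reads in wild type and 156224 to 198347 in Phf23-/-. Of these, 4 were called higher and 0 lower, beside 14.8% of all genes in each direction. The 4 were Hes5, Fabp7, Msi1 and Sox1 (log2 1.67, 0.62, 0.45 and 0.60, limma-trend FDR = 0.000332, 0.00923, 0.0133 and 0.0174). Much of the sum was Vim, at 67797 ± 4334 and 86985 ± 14997, which was not called (limma-trend FDR = 0.0633). Sox2 (log2 0.41, FDR = 0.0506), Nes, Pax6, Slc1a3 and Prom1 were not called either (FDR = 0.552, 0.563, 0.964 and 0.375 for the last 4). Meninges and choroid plexus are sources of BMP ligands in the embryo. Of 7 meningeal markers 3 were measured, summing to 184 to 280.1 and 439 to 469.8, most of it Foxc1, which rose from 212 ± 39.4 to 426 ± 23.2 (limma-trend FDR = 0.00130). The other 2 were not called, with Col1a1 at 18.8 ± 8.38 and 24.7 ± 11.03 (FDR = 0.497) and Col1a2 at 3.67 ± 2.47 and 2.41 ± 2.18 (FDR = 0.595). Of 5 choroid plexus markers 3 were measured, summing to 4.84 to 14.6 and 0.963 to 13.7. Foxc1, like Bmp7, was higher in the libraries labelled Phf23-/-. Among these, Foxc1 was highest in library 1 (455), where Bmp7 was lowest (3443). In wild type, both genes were highest in library 3 (253 and 3103) and next in library 4 (237 and 3071). The part of Foxc1 in the Bmp7 result was not tested. Endothelial markers (4 of 6 measured) summed to 36.0 to 73.9 and 67.4 to 89.0, the pericyte marker measured to 2.88 to 5.89 and 6.51 to 10.5, and the microglial one to 15.7 to 48.4 and 14.4 to 17.9. Young neuron markers (6 of 6) summed to 386 to 434 and 368 to 472, astrocyte markers (5 of 5) to 4699 to 5266 and 3758 to 4182, and oligodendrocyte lineage markers (6 of 6) to 3236 to 3466 and 2373 to 3312. Single markers differed from these sums, with 2 astrocyte markers called higher and 2 lower, and 4 oligodendrocyte lineage markers higher and 1 lower. Of young neuron markers Rbfox3 was called, rising from 15.7 ± 8.42 to 45.0 ± 3.39 (limma-trend FDR = 0.0100). Of endothelial markers Emcn was called, rising from 5.62 ± 3.25 to 15.1 ± 4.90 (FDR = 0.0431), a call that held on leaving out wild type 1 and no other library. Of all genes, 29.6% were called.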

How the data were processed

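Values were deposited by the authors as a normalised signal per gene: read counts over 1 size factor for each library. The tools, per the submitters' processing notes, were STAR 2.7.1a, DESeq2 1.38.3, fastp 0.23.4 and FastQC 0.12.1, and the build was mm10. For the counter, annotation, strand and gene filter, nothing is given in the sources used here. Whole reads were recovered for 100% of values (tolerance 1e-04 reads). Of 15602 rows, 64 repeats were dropped. The lowest gene total was 11 reads, so rarer genes had been left out. Of the columns, 0 were from elsewhere. GENCODE M21 gave a symbol for 15535 genes. Exons of Bmp4, Bmpr1a and Tgfb2 overlap an unmeasured gene over 3.96%, 4.57% and 2.14% of their length.

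The test was limma-trend (limma 3.58.1, R 4.3.3, robust empirical Bayes) on log2(value + 1), genotype only, two-sided, with Benjamini-Hochberg adjustment over 15538 genes. This scale understates changes of genes with few reads. Every FDR without another tool's name is from it. It was tested on simulated data without any transcript length slope, so that test does not cover the slopes seen here. Alternatives were edgeR 4.0.16 (TMM or DESeq2 size factors), DESeq2 1.42.0 and limma-voom on recovered reads, other scalings, a minimum mean of 10, a pseudocount of 0.1, a replicate block, leaving out each library, and 3 fits for transcript length. These subtracted a loess trend (span 0.3) with length and GC content of the longest transcript, added each library's length slope as a covariate, or left out the 4 libraries of steepest slope. The genes and lists were chosen with earlier results of these data known. Named by rule were the 10 members, Phf23, the 3 genes of lowest FDR in each list, and the 2 most similar genes for 4 members.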

Additional observations from a re-analysis of the deposited data

Results flagged for a closer look

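In 7 of 84 groups of 4 libraries, 1 library stood apart from the other 3, its gap to the nearest of them exceeding the critical share of the group's range. Chance flags about 1 in 20 groups. Phf23-/- 4 was high for Bmpr2 (2795 normalised reads), Tgfbr1 (919.7) and Smad7 (49.9). Its length slope (0.040) was above 0, the average of the libraries, unlike those of Phf23-/- 1 to 3. Phf23-/- 1 was low for Tgfbr2 (250.3) and held the 1 Snai2 read of its group (0.963 normalised reads). Wild type 3 held all Bmp4 reads of its group (3.38 normalised reads) and was high for Id4 (100.1). For Snai2 and Bmp4 the other 3 libraries were at 0, so any read there stands apart by construction and the chance rate does not apply.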

How the results depend on the processing

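The count of all genes called (4593) was 2834 once the length and GC trend was taken out, 1422 without the 4 libraries of steepest length slope, 170 with the slope covariate and 1884 to 5861 without each library in turn (2189, 2106 and 1884 without wild type 1, wild type 2 or Phf23-/- 1). The count of members called (3) was 5 with DESeq2, 5 with library size scaling, 1 without the 4 libraries, 0 with the covariate and 1 to 4 without each library (1 without wild type 2). DESeq2 and library size scaling each added Bmpr1a (log2 -0.34 and -0.40, FDR = 0.0393 and 0.0381) and Tgfbr2 (log2 -0.31 and -0.37, FDR = 0.0476 and 0.0389). Library size scaling moved the median of all genes to -0.060. EdgeR and limma-voom tested 8 members (Bmp4 and Smad6 fell under their filter) and called 3.

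With the length and GC trend subtracted, Tgfb2 gained a call (0.38), and Bmpr2 (0.075), Bmpr1a (0.036), Bmpr1b (0.29), Tgfbr2 (0.11), Smad2 (0.20), Gdf15 (-0.20) and Itgb8 (0.018) changed sign without a call. With the covariate the calls of Bmp7 (0.26), Bmpr2 (-0.14) and Tgfbr1 (-0.36) ended, and Bmpr1a (0.055), Bmpr1b (0.35), Smad7 (-0.081), Gdf15 (-0.072), Id3 (-0.0071) and Cdkn2b (-0.067) changed sign. Without the 4 libraries the calls of Bmp7 (0.26) and Bmpr2 (-0.23) ended, and Bmpr1b (0.13), Smad7 (-0.28) and the Bmp4 to Bmp7 ratio (-0.047) changed sign. The cause was not tested.

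Calls in the lists (ligands, receptors, signal-carrying Smads, extracellular, intracellular, BMP targets, TGF-beta targets) were 2, 3, 2, 6, 8, 5 and 4. With the length and GC trend subtracted they were 1, 1, 2, 6, 6, 3 and 1, with the covariate 0, 0, 1, 0, 0, 0 and 1, and without the 4 libraries 1, 0, 1, 3, 3, 2 and 3. The ligand list had 1 with TMM and 1 with library size scaling in limma-trend. Without each library the counts ran from 0 to 2, 0 to 3, 1 to 3, 4 to 7, 5 to 10, 2 to 5 and 2 to 4.

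Without each library, log2 fold changes ran from 0.29 to 0.36 for Bmp7, -0.64 to -0.41 for Bmpr2, -0.72 to -0.59 for Tgfbr1, -0.43 to -0.26 for Bmpr1a, 1.12 to 1.67 for Smad6, -0.15 to 0.085 for Bmpr1b and -0.091 to 0.44 for Smad7. Bmpr1b changed sign without wild type 1 (0.017), wild type 3 (0.0053) or Phf23-/- 2 (0.085), and Smad7 without wild type 2 (-0.091).

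Deviations of same-numbered libraries from the genotype means correlated negatively (r from -0.33 to -0.13), and no library correlated best with its own number. These deviations include the length slope, which was highest in wild type 1 and 2 and lowest in Phf23-/- 1 and 2. The check therefore gave no sign of pairing by number but cannot exclude it. With the replicate block 333 genes and 0 members were called, with Bmp7 at 0.33 (FDR = 0.0798), Bmpr2 at -0.52 (FDR = 0.0697) and Tgfbr1 at -0.63 (FDR = 0.0538), and the lists had 0, 0, 0, 2, 1, 1 and 1 calls.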

Other observations

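Foxc1, a forkhead gene of mesenchyme and meninges that is no member and was chosen after its values were seen, counted 175, 181, 253 and 237 in the wild-type libraries and 455, 416, 432 and 401 in those labelled Phf23-/- (normalised reads, limma-trend FDR = 0.00130). It was at log2 1.17 with the length and GC trend subtracted, against 1.02 before, and its call ended with the slope covariate (log2 0.74, FDR = 0.0858).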
